A study of Mus musculus with 6 samples.

Results

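The intercalated disc and gap junction genes described here are 10 genes that build the electrical and mechanical contacts between neighbouring cardiomyocytes, namely Gja1, Gja5, Cdh2, Dsp, Pkp2, Dsg2, Dsc2, Jup, Ctnna3 and Tjp1. They were chosen by gene symbol, and all 10 were found among the 54232 genes of the deposited table and passed a filter on low values that kept 16202 genes. Nuclear RNA had been sequenced from frozen left ventricles of adult male mice, after nuclei labelled for PCM1 (a protein that accumulates around cardiomyocyte nuclei) had been sorted by flow cytometry. There were 3 UtyGT and 3 WT libraries, which carry the numbers 11, 15 and 31 in either group. UtyGT mice carry the gene trap Uty Gt(XS0378)Wtsi in the Uty gene of chromosome Y, were derived from a single line of trapped 129P2/OlaHsd embryonic stem cells, and were backcrossed to C57BL/6J females. WT mice were their isogenic counterparts, so that both groups carry a 129P2 chromosome Y on a C57BL/6 background. The sources used here do not give the number of animals behind each library, so the spread that the p-values measure, between libraries, may be technical.

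Cardiomyocytes meet end to end at the intercalated disc, where different kinds of contact lie close together. Gap junctions are arrays of channels made of connexins, through which the electrical impulse passes from cell to cell. Adherens junctions tie the contractile myofibrils of adjacent cells to each other by means of N-cadherin and catenins, whereas desmosomes tie their intermediate filaments by means of desmosomal cadherins, plakoglobin, plakophilin and desmoplakin. In mammals, connexin 43 is the main connexin of the working ventricle, whereas connexin 40 is found in atrial and conduction system cardiomyocytes and in arterial endothelium. Inherited defects of desmosomal genes are a well known cause of arrhythmogenic cardiomyopathy in humans.

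Because Gja1 and Gja5 encode connexins of different cardiac compartments and were the most and the least abundant of the 10 transcripts, the bases just before their RefSeq transcription starts are shown. The 250 bases were taken from RefSeq on GRCm38.p6, and capitals mark the only matches found, on either strand, to 4 short motifs.
Gja5, chr3:97032152-97032401, plus strand: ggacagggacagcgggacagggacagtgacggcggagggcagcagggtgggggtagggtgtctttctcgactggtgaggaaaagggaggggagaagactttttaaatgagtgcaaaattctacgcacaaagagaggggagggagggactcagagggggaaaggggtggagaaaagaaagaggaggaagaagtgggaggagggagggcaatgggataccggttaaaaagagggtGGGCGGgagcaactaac
Gja1, chr10:56377050-56377299, plus strand: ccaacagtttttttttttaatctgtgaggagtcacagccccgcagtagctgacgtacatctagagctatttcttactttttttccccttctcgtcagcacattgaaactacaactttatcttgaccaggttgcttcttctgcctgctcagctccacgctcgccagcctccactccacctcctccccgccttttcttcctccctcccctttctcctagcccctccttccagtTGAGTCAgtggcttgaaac
The Gja5 sequence held a GC box (letters GGGCGG) whose first base lay 17 bases before the start, and 56.4% of its bases were G or C. The Gja1 sequence held an AP-1 site (letters TGAGTCA) whose first base lay 19 bases before the start, and 50% of its bases were G or C. Over 32851 promoter sequences of the same length, 32.7% held the GC box and 4.46% the AP-1 site. The other motifs searched were the TATA box, with letters TATAAA, which 12.4% of those promoter sequences held, and the T-box site, with letters GGTGTGA, which 3.33% held. These matches describe the letters of the windows and were not tested as binding sites. Of the 10 genes, 6 were matched in the promoter sequences used.

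The libraries held between 18204752 and 23252887 reads assigned to genes, of which the 10 genes took between 0.351% and 0.435%. Normalised read counts are gene reads divided by a size factor of the library, and are not divided by gene length. The trapped gene, Uty, had normalised read counts of 22.1, 14.1 and 19.9 in UtyGT libraries 11, 15 and 31, against 1212, 1332 and 1314 in WT libraries 11, 15 and 31. Its log2 fold change was -6.05 (SE 0.18, limma adjusted p = 0.000113), and all 6 libraries matched their labels. The first principal component held 73.3% of the variance and separated both number 15 libraries from the other 4. The summed level of 10 leukocyte markers, led by Cd74, was also lowest in the number 15 libraries (702 in UtyGT and 1719 in WT, against 8565 to 15171 in the other UtyGT libraries and 15850 to 20420 in the other WT libraries). Markers of ventricular cardiomyocytes, led by Ttn, were abundant in every library, with summed normalised read counts of 1939205 to 2229221 in UtyGT and 1964976 to 2373027 in WT.

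The comparison of UtyGT with WT addressed whether nuclear transcripts of the junction genes differ when Uty carries the trap. None of the 10 genes passed the threshold of a Benjamini-Hochberg adjusted p under 0.05 in limma, and all 10 adjusted p-values were 1.00. Over all genes tested, 0.00617% were called, which is 1 gene, Uty itself. Ddx3y, a gene beside Uty on chromosome Y, stood at 15.6% of WT, with every UtyGT library below every WT library. It was not called either (unadjusted p = 0.000163 in limma), so this test can miss a large difference. At an unadjusted p under 0.05, limma called 0 of the 10 genes (1.2% of all genes tested), whereas edgeR and DESeq2 each called 1, which was Gja5. The median log2 fold change of the 10 genes was 0.06, with 8 above and 2 below 0, compared with a median of -0.01 over all genes tested. For the 9 genes other than Gja5, the 95% intervals ranged from 0.70-fold to 1.36-fold at their widest, which was for Gja1. A p that misses the threshold does not show equal levels, and these intervals give the sizes that remain possible.

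**Figure D1:**
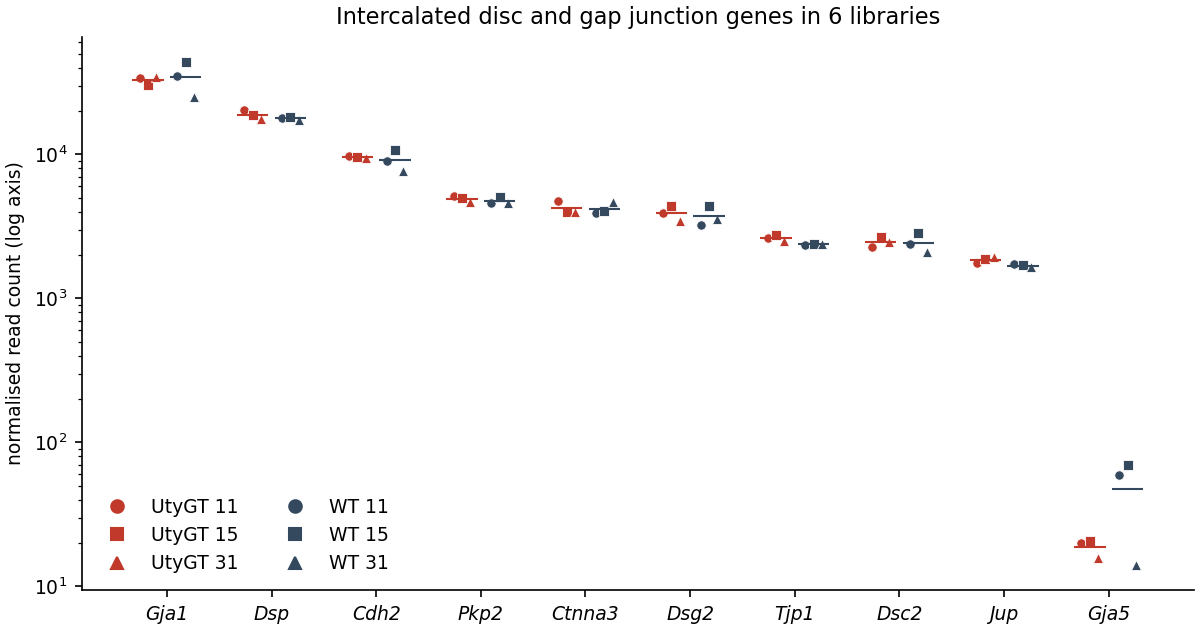
Normalised read counts (vertical log axis) of the 10 genes in UtyGT libraries (red, left) and WT libraries (dark blue, right), with a symbol for each number and a line at the mean of each group (n = 3). Gja1 lies at 24914 or above in every library and Gja5 at 69.1 or below, where WT 11 (59.1) and WT 15 (69.1) stand well above the other 4 libraries.

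Gja1 encodes connexin 43, the main gap junction protein of the ventricle. Its normalised read counts were 34221, 30208 and 34671 in UtyGT libraries 11, 15 and 31, against 35189, 43976 and 24914 in WT libraries 11, 15 and 31. WT 11 and WT 15 lay above all 3 UtyGT libraries and WT 31 was the lowest of all 6, so that the groups overlapped. The group means were 33033 ± 2457 in UtyGT and 34693 ± 9541 in WT (SD, n = 3 each), and the log2 fold change was -0.04 (SE 0.20, 95% interval -0.52 to 0.45). Libraries of equal number differed in log2 by -0.04 (11), -0.54 (15) and 0.48 (31), so that the direction was not shared. Without both number 15 libraries, the log2 fold change turned to 0.22. By normalised read count per kilobase of exons, Gja1 ranked 85 among the 16184 genes tested that had an exon length.

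Gja5 encodes connexin 40, the gap junction protein of atrial and conduction system cells. Its normalised read counts were 20.0, 20.7 and 15.7 in UtyGT libraries 11, 15 and 31, against 59.1, 69.1 and 14.0 in WT libraries 11, 15 and 31. WT 11 and WT 15 stood above all 3 UtyGT libraries, but WT 31 was the lowest of all 6, so that the groups overlapped. These values rest on 19, 22 and 15 reads in UtyGT and on 63, 75 and 13 reads in WT. The group means were 18.8 ± 2.70 in UtyGT and 47.4 ± 29.3 in WT (SD, n = 3 each), which puts UtyGT at 39.6% of WT. On the scale of log2(normalised count + 1) the fold change was -1.02 (SE 0.59, 95% interval -2.42 to 0.38, unadjusted p = 0.129 and adjusted p = 1.00 in limma). Libraries of equal number differed in log2 by -1.52 (11), -1.69 (15) and 0.15 (31). The value depended on single WT libraries, with a log2 fold change of -1.72 without WT 31 and -0.61 without WT 15. The unadjusted p of Gja5 fell under 0.05 in limma with the numbers as a block and in limma without WT 31. It also did so in edgeR with and without that block and in DESeq2 without it. In these settings, between 114 (DESeq2) and 399 (limma with the block) of all genes tested passed the same unadjusted threshold. The adjusted p of Gja5 stayed between 0.877 and 1.00 in all 18 alternatives that gave a value.

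Markers of atrial cardiomyocytes moved with Gja5 across libraries only in part. The 10 atrial markers were listed with earlier results of these data known. All 10 had log2 fold changes below 0, with a median of -1.45. Of the 10, 6 reached an unadjusted p under 0.05 in limma, compared with 1.2% of all genes tested, in either direction. None of the 10 markers passed after adjustment. Their summed normalised read counts were 5923, 5977 and 6668 in UtyGT libraries 11, 15 and 31, against 7711, 9789 and 5702 in WT libraries 11, 15 and 31. That sum is dominated by Pam, a peptide-processing enzyme also made outside the atrium. Without Pam, a split chosen after its values were seen, the sums were 824, 924 and 1424 in UtyGT and 2598, 3576 and 1304 in WT. The larger part of these sums came from 1 gene, Nppa, with 530, 581 and 925 in UtyGT and 1501, 2177 and 810 in WT. WT 11 and WT 15 thus had the highest sums of the 6 libraries for the atrial markers as for Gja5. WT 31 lay within the UtyGT range for the atrial markers without Pam. Single markers differed from Gja5, which was lowest in WT 31. Of the 10 markers, 3 had every UtyGT library below every WT library, compared with 2.32% of all genes tested. Within UtyGT, number 31 had the highest sum without Pam (1424) but the lowest Gja5 (15.7). Of the atrial markers, Bmp10 was at 0 in UtyGT 11, UtyGT 15 and WT 11. In bulk samples of this kind, fewer cells of a type and less RNA per cell cannot be told apart, and the part of atrial nuclei in the Gja5 values was not tested.

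Conduction system and endothelial cells also express connexin 40. Summed conduction system markers, of which Tbx5 and Irx3 had the highest counts, were 2880, 2861 and 2825 in UtyGT libraries 11, 15 and 31, against 2750, 3190 and 2583 in WT libraries 11, 15 and 31. As for Gja5, this sum was highest in WT 15 and lowest in WT 31, but WT 11 lay below all 3 UtyGT libraries. The median log2 fold change of these 12 markers was -0.02, with 5 above and 7 below 0. Of the 12, 1 reached an unadjusted p under 0.05 in limma, with higher values in UtyGT (1.2% of all genes tested, in either direction). Every UtyGT library lay above every WT library for 1 of them, compared with 3.1% of all genes tested. Kcne1, a potassium channel subunit gene on this list that was singled out after its values were seen, had 22.1, 29.1 and 18.8 in UtyGT and 40.3, 35.0 and 8.64 in WT, so that WT 11 and WT 15 were the highest and WT 31 the lowest libraries. These values rest on 8 to 43 reads, and other genes of the list differed. Cntn2 had 95.7, 77.0 and 53.3 in UtyGT and 52.5, 53.4 and 36.7 in WT. Its UtyGT library was above the WT library of equal number in 3 of 3 pairs, with a log2 fold change of 0.63 (SE 0.28). Summed endothelial markers, led by Kdr, were 1246, 1326 and 1422 in UtyGT and 2376, 1157 and 1124 in WT, so that WT 11 alone stood apart. None of the conduction system or endothelial markers was at 0 in all libraries, and the part of these cells in the Gja5 values was not tested. Exons of Gja5 overlap those of Gpr89, on the opposite strand, by 165 bases. Gpr89 had normalised read counts of 453 to 503 in UtyGT and 467 to 548 in WT, and since the strand setting of the read counting is not given in the sources used here, shared reads cannot be told apart.

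**Figure D2:**
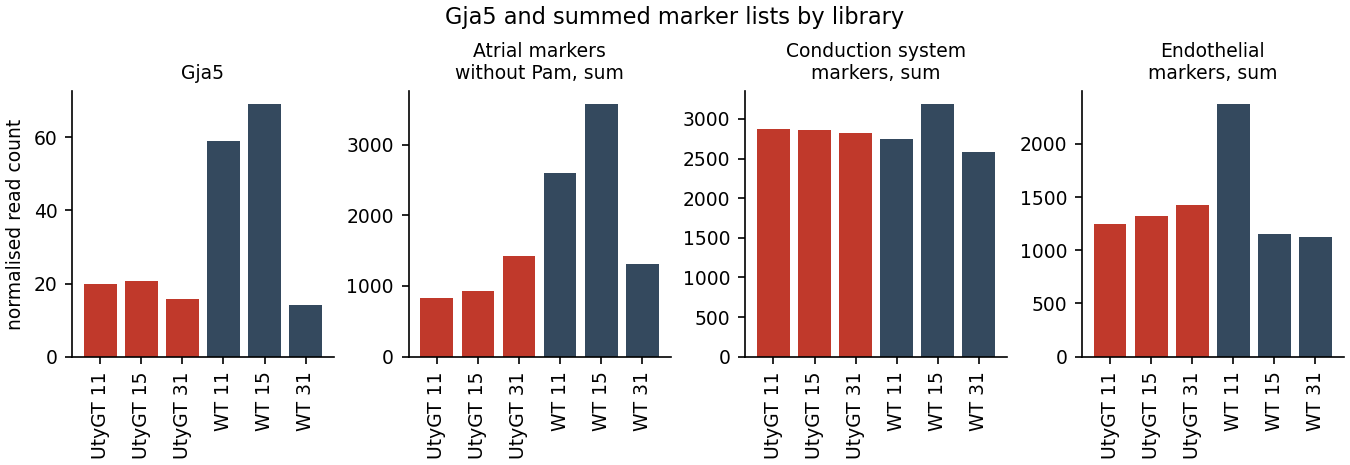
Normalised read counts (vertical axes, from 0) of Gja5 and of summed marker lists in the 3 UtyGT libraries (red, left) and the 3 WT libraries (dark blue, right). Gja5 and the atrial markers without Pam are both highest in WT 15 (69.1 and 3576) and next highest in WT 11 (59.1 and 2598), whereas the endothelial markers are highest in WT 11 alone (2376).

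The adherens junction genes among the 10 are Cdh2, which encodes N-cadherin, the adhesion molecule of the cardiac adherens junction, and Ctnna3, which encodes alpha-T-catenin, a linker of cadherin complexes to actin. Cdh2 had normalised read counts of 9725, 9635 and 9397 in UtyGT libraries 11, 15 and 31, against 9036, 10661 and 7671 in WT libraries 11, 15 and 31. As for Gja1 and Gja5, WT 15 was the highest and WT 31 the lowest library, and the UtyGT libraries lay between them. The log2 fold change of Cdh2 was 0.08 (SE 0.12, 95% interval -0.21 to 0.37), and it was -0.03 without WT 31. Ctnna3 had normalised read counts of 4767, 3964 and 3957 in UtyGT and 3894, 4032 and 4709 in WT. The highest library of UtyGT for Ctnna3 was number 11 and that of WT was number 31, and the groups overlapped across nearly their whole range. The log2 fold change of Ctnna3 was 0.01 (SE 0.11, 95% interval -0.26 to 0.27).

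Desmosomal genes comprise the cadherins Dsg2 (desmoglein 2) and Dsc2 (desmocollin 2), the plaque proteins Jup (plakoglobin, which is also found in adherens junctions) and Pkp2 (plakophilin 2), and Dsp (desmoplakin, which binds intermediate filaments). Dsg2 had normalised read counts of 3936, 4382 and 3461 in UtyGT libraries 11, 15 and 31, against 3261, 4359 and 3540 in WT libraries 11, 15 and 31. Dsc2 had 2259, 2677 and 2454 in UtyGT and 2376, 2835 and 2105 in WT. For both cadherins, the highest library of either group was number 15, and the groups overlapped. The log2 fold changes were 0.08 for Dsg2 (SE 0.13) and 0.02 for Dsc2 (SE 0.12). Exons of Dsg2 overlap 330 bases of Gm16090 on the opposite strand, which had a normalised read count of 8.42 or less in every library.

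Plaque genes had narrower spreads than the cadherins. Jup had normalised read counts of 1772, 1871 and 1930 in UtyGT libraries 11, 15 and 31, against 1734, 1697 and 1643 in WT libraries 11, 15 and 31. All 3 UtyGT libraries lay above all 3 WT libraries, with the closest values in number 11. The log2 fold change of Jup was 0.13 (SE 0.07, 95% interval -0.03 to 0.30, unadjusted p = 0.094 in limma). Pkp2 had normalised read counts of 5120, 4958 and 4661 in UtyGT and 4570, 5047 and 4633 in WT, with overlapping groups and a log2 fold change of 0.05 (SE 0.08). Dsp had 20457, 18808 and 17522 in UtyGT and 17991, 18221 and 17461 in WT, with a log2 fold change of 0.08 (SE 0.09). The UtyGT library was above the WT library of equal number in 3 of 3 pairs for Dsp, but by only 0.0051 on the log2 scale in number 31. Exons of Dsp overlap 499 bases of Gm10129 on the opposite strand, which had at most 28.2 normalised read counts.

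Tjp1 encodes ZO-1, a scaffold protein that binds connexin 43 at the border of the gap junction. Its normalised read counts were 2615, 2741 and 2520 in UtyGT libraries 11, 15 and 31, against 2331, 2400 and 2392 in WT libraries 11, 15 and 31. All 3 UtyGT libraries lay above all 3 WT libraries, and the lowest UtyGT library was number 31. The log2 fold change of Tjp1 was 0.14 (SE 0.07, 95% interval -0.01 to 0.30, unadjusted p = 0.068 and adjusted p = 1.00 in limma). Jup and Tjp1 were thus the 2 of 10 genes with every UtyGT library above every WT library, an order found in 3.1% of all genes tested. The opposite order was found in 0 of the 10 genes and in 2.32% of all genes tested. The log2 fold changes of Jup and Tjp1 ranged from 0.11 to 0.17 as each library was left out in turn, and their adjusted p was 0.851 or higher in every alternative.

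**Figure D3:**
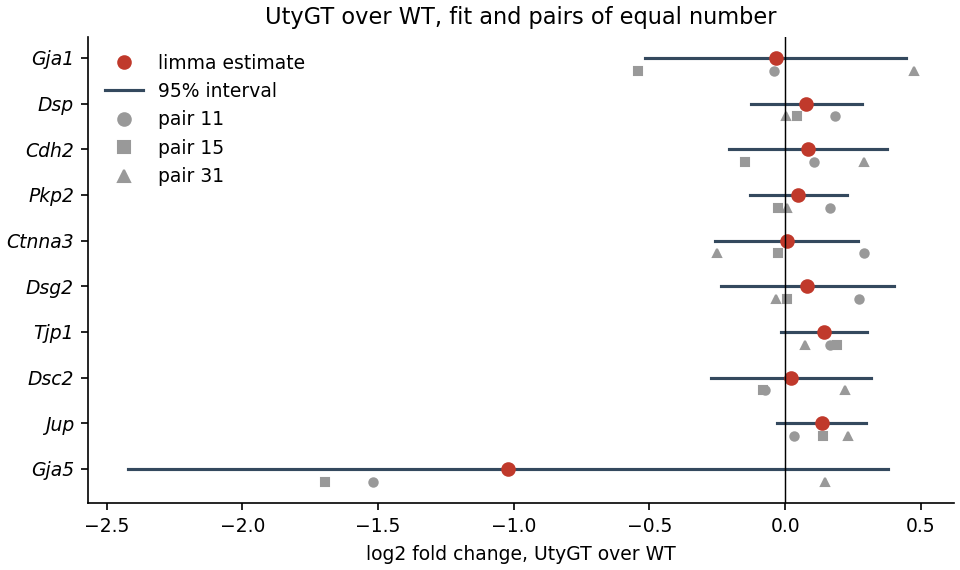
Log2 fold change, UtyGT over WT (horizontal axis), of each gene, with limma estimates (red points), 95% intervals (lines) and the differences between libraries of equal number (grey symbols). All 10 intervals include 0, that of Gja5 is the widest (-2.42 to 0.38), and the 3 grey symbols lie above 0 for Dsp, Tjp1 and Jup.

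Across all 6 libraries, the lowest value of each of the 10 genes was in a WT library, namely WT 31 for 6 genes and WT 11 for 4. Over all genes tested, 55.4% had their lowest value in a WT library and 37.8% in WT 31 or WT 11. The highest value was in a UtyGT library for 6 genes and in WT 15 for the other 4, which were Gja1, Gja5, Cdh2 and Dsc2. The summed level of the 10 genes was 84892, 79266 and 80588 in UtyGT libraries 11, 15 and 31, against 80443, 93298 and 69082 in WT libraries 11, 15 and 31. WT 15 was the highest and WT 31 the lowest in this sum, and the UtyGT libraries lay between them. Gja1 alone made up 38.1% to 43.0% of the sum in UtyGT and 36.1% (WT 31) to 47.1% (WT 15) in WT. This order therefore rests in large part on 1 gene.

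Similarity was measured by the root-mean-square distance between log2 values centred on each gene's mean over the 6 libraries. The nearest pairs were Dsp and Pkp2 (0.05), Jup and Tjp1 (0.07), and the 2 cadherins Cdh2 and Dsc2 (0.08). Gja1 was nearest to Cdh2 (0.14), Dsg2 to Pkp2 (0.11) and Ctnna3 to Dsp (0.12). Gja5 was the farthest from every other gene, and its own nearest gene was Gja1 at a distance of 0.71. Distances are small for genes that vary little, and these 6 points share the library and its size factor.

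**Figure D4:**
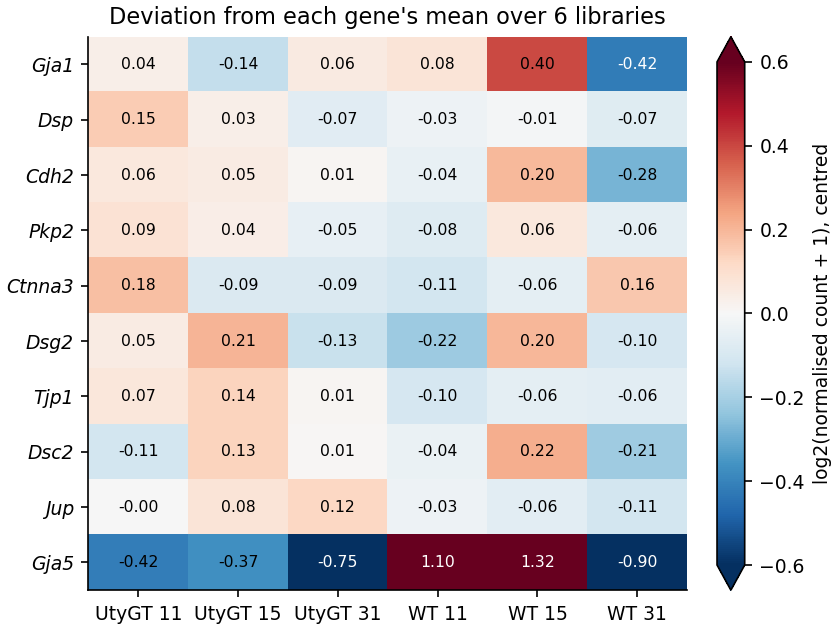
Deviation of each gene (rows) from its own mean over the 6 libraries (columns, UtyGT left and WT right), on the scale of log2(normalised count + 1), with colours capped at 0.6 on either side of 0. Gja1 and Cdh2 share a high value in WT 15 (0.40 and 0.20) and a low one in WT 31 (-0.42 and -0.28), and Gja5 goes beyond the colour range in 4 libraries.

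The spread over libraries differed among the genes. The SD over the 6 libraries was 0.27 on the log2 scale for Gja1, above that of 93.9% of the 2495 genes tested with a mean of at least 1000. Corresponding values were 0.18 for Dsg2 (77.5%), 0.16 for Cdh2 (68.3%) and 0.16 for Dsc2 (68.1%). The lowest were those of Pkp2, with 0.07 (14.4%), Dsp, with 0.09 (23.3%), and Jup, with 0.09 (24.6%). The SD of Gja5 was 0.96, at a read count that leaves more counting error than for the other 9 genes.

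Differences between the numbers 11, 15 and 31 were tested for each gene by an F test in limma, with UtyGT or WT as a covariate. None of the 10 genes passed an adjusted p under 0.05, compared with 4.79% of all genes tested, and limma called 0 of the 10 at an unadjusted p under 0.05, compared with 9.57% of all genes. edgeR and DESeq2 also called 0 of the 10 genes, adjusted or not. Over all genes tested, edgeR called 627 adjusted and 1532 unadjusted, and DESeq2 called 842 adjusted and 1267 unadjusted. The smallest unadjusted p-values of the 10 were those of Gja5, with a range of 1.30 between the numbers on the log2 scale (unadjusted p = 0.068, adjusted p = 0.631 in limma), and Dsg2, with a range of 0.32 (unadjusted p = 0.078, adjusted p = 0.685 in limma). Dsg2 averaged 3599, 4370 and 3500 in numbers 11, 15 and 31, and Dsc2 averaged 2318, 2756 and 2279. These 2 desmosomal cadherins were the only ones of the 10 genes with both number 15 libraries above the other 4, an order found in 11.5% of all genes tested.

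Levels of different genes were compared only per kilobase of exons, using the union of the exons of each gene. By this measure, averaged over the 6 libraries, Gja1 was first with 3301 normalised counts per kilobase, followed by Dsp with 1906 and Cdh2 with 1160. Pkp2 came next with 901, then Ctnna3 with 584, Dsc2 with 464 and Dsg2 with 462. Tjp1 had 320, Jup had 276 and Gja5 had 5.76. The ranges over libraries of neighbours in this order overlapped for Cdh2 and Pkp2, for Dsc2 and Dsg2, and for Tjp1 and Jup, but not for the other neighbours. The union is longer than any one transcript. With the longest coding transcript instead, Gja1 was again first (10642 per kilobase) and Gja5 last (9.02), but the order between them changed in part. Cdh2 (1932) and Dsp (1919) changed places with overlapping ranges. Dsg2 (663), Jup (554) and Dsc2 (529) followed Ctnna3 in that order, with ranges of neighbours that overlapped, and Jup now stood above Tjp1 (355) with ranges that did not overlap.

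In GRCm38, the 10 genes lie on 7 chromosomes. Gja1 (ENSMUSG00000050953, plus strand, 56377330 to 56402513) and Ctnna3 (plus strand, 63430098 to 65003667) lie on chromosome 10. Cdh2 (minus strand, 16588877 to 16809246), Dsc2 (minus strand, 20030633 to 20059554) and Dsg2 (plus strand, 20558074 to 20604521) lie on chromosome 18. Gja5 (ENSMUSG00000057123, plus strand, 96904693 to 97077416) lies on chromosome 3, Dsp (plus strand, 38151294 to 38198577) on chromosome 13 and Pkp2 (plus strand, 16213318 to 16272712) on chromosome 16. Jup (minus strand, 100368958 to 100397763) lies on chromosome 11 and Tjp1 (minus strand, 65296165 to 65527781) on chromosome 7. The values are sums over exons, and none of the genes lies on chromosome Y, where the trap is.

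Lists of other genes of the same junctions were examined beside the 10 genes, and 0 genes of all 6 lists were called in either direction by limma, edgeR or DESeq2. The lists held 6, 15, 6, 10, 14 and 15 genes tested. At an unadjusted p under 0.05, limma called 1 of these genes, Nectin2, compared with 1.2% of all genes tested. Of 21 other connexins and pannexins, 6 passed the filter on low values and 7 were at 0 in every library. Their median log2 fold change was -0.17, with 1 gene above 0 and 5 below. Gjc1 (connexin 45) had normalised read counts of 409, 434 and 432 in UtyGT libraries 11, 15 and 31, against 411, 495 and 281 in WT libraries 11, 15 and 31. It shared the high WT 15 and the low WT 31 with Gja1, and its log2 fold change was 0.14 (SE 0.20), or -0.09 without WT 31. Gja6 had a log2 fold change of -0.14 (SE 0.24), from low read counts.

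Of 16 other adherens junction genes, 15 were tested, with 9 above and 6 below 0 and a median log2 fold change of 0.04. Nectin2, an immunoglobulin-like adhesion molecule, had normalised read counts of 705, 793 and 689 in UtyGT libraries 11, 15 and 31, against 588, 628 and 579 in WT libraries 11, 15 and 31. All 3 UtyGT libraries lay above all 3 WT libraries, with a log2 fold change of 0.28 (SE 0.09, unadjusted p = 0.017 and adjusted p = 1.00 in limma). That order was found in 1 of the 15 genes tested of this list and in 3.1% of all genes tested. Cdh13 (T-cadherin) had a log2 fold change of 0.12 (SE 0.10) and Ctnnd1 (p120 catenin) one of -0.11 (SE 0.10). Ctnnd2 (delta-catenin) had one of -1.08 (SE 1.19) and turned to 0.27 without UtyGT 15, where it had 1 read. The F test between the numbers called 2 of the 15 genes tested of this list, Ctnnd2 and Nectin1, compared with 4.79% of all genes tested.

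Of 15 other desmosome genes, 6 were tested and 5, which are known from epithelial desmosomes, were at 0 in every library. The median log2 fold change of the 6 was -0.11, with 2 above and 4 below 0. Des, which encodes the muscle intermediate filament protein desmin, had a log2 fold change of 0.09 (SE 0.09), and Pkp4, a relative of plakophilins, had one of -0.14 (SE 0.10). Synm (synemin, another intermediate filament protein) had one of -0.26 (SE 0.22), and Evpl (envoplakin) one of 0.65 (SE 0.56). Evpl turned to -0.07 without both number 15 libraries.

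Of 12 genes of ZO and related scaffold proteins, 10 were tested, with 3 above and 7 below 0 and a median log2 fold change of -0.04. Cgnl1 (paracingulin) had normalised read counts of 175, 159 and 156 in UtyGT libraries 11, 15 and 31, against 223, 190 and 186 in WT libraries 11, 15 and 31. All 3 UtyGT libraries lay below all 3 WT libraries, in contrast to Tjp1, and its log2 fold change was -0.29 (SE 0.13, unadjusted p = 0.063 in limma). That order was found in 1 of the 10 genes tested of this list and in 2.32% of all genes tested. Mpdz, a multiple PDZ domain scaffold, had a log2 fold change of -0.16 (SE 0.09). Dlg5, another scaffold gene of the list, had one of 0.10 (SE 0.08).

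Of 16 channel and anchor genes of the disc, 14 were tested, with 10 above and 4 below 0 and a median log2 fold change of 0.04. Tmem43, a nuclear envelope gene in which variants cause arrhythmogenic cardiomyopathy in humans, had a log2 fold change of 0.14 (SE 0.09), and Cav3 (caveolin 3) one of 0.13 (SE 0.09). These were among 3 genes of the list with every UtyGT library above every WT library (3 of 14 tested, compared with 3.1% of all genes tested), but neither passed an unadjusted p under 0.05. Mapre1, a microtubule end-binding protein, had a log2 fold change of -0.05 (SE 0.14).

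All 15 genes that link myofibrils to the disc were tested, with 11 above and 4 below 0 and a median log2 fold change of 0.03. Their log2 fold changes ranged from -0.09 for Csrp3 (muscle LIM protein, SE 0.07) to 0.13 for Nrap (a nebulin-related anchoring protein, SE 0.13). Bves, which encodes a Popeye domain membrane protein, had one of 0.10 (SE 0.08), and Alpk2 (alpha kinase 2) one of -0.05 (SE 0.08).

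**Figure D5:**
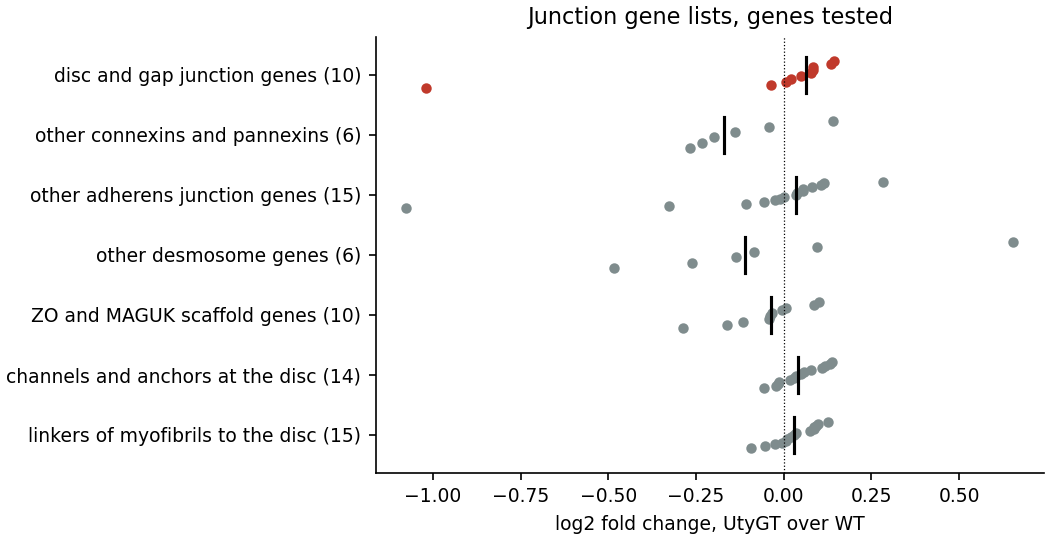
Log2 fold change, UtyGT over WT (horizontal axis), of the 10 genes (red) and of the tested genes of 6 lists of other junction genes (grey), with a black line at each median and the number of genes in brackets. The medians lie between -0.17 (other connexins and pannexins) and 0.06 (the 10 genes), and Gja5 (-1.02) stands apart from the other 9 red points.

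Other cell types that the sort could let through were read from their markers. Summed fibroblast markers, led by Gsn, were 2126, 1858 and 5872 in UtyGT libraries 11, 15 and 31, against 8603, 1766 and 3797 in WT libraries 11, 15 and 31. These sums, like those of the leukocyte markers, were lowest in the number 15 libraries, where Dsg2 and Dsc2 were highest, and the part of these cells in the values of the 2 cadherins was not tested. All 11 mesothelial and epithelial markers, which could point to cells with desmosomes of their own, were below the filter on low values, with sums of 7.52 to 24.2 in UtyGT and 12.0 to 46.9 in WT.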

How the data were processed

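Nuclear RNA of PCM1-sorted cardiomyocyte nuclei was measured in 3 UtyGT and 3 WT libraries made with a stranded low-input total RNA kit. Per the labels and the submitters' processing notes, the authors used CASAVA 1.4, STAR 2.5.1b, featureCounts 1.6.0 and DESeq2 1.22.2, with GRCm38 and Ensembl annotation 98. The deposited values are a signal, namely reads per gene scaled by the size factor of each library (normalised read counts). A second deposited table holds 4 of these libraries, normalised on its own, and its reads differed for 0 genes. The deposited columns of the authors' own comparison (fold changes, test statistics and p-values) were not used.

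All values in each library (100%) were whole multiples of 1 read, with a tolerance of 0.0001 reads, so that reads could be recovered. UtyGT was compared with WT by limma 3.58.1 in R 4.3.3 (limma-trend, two-sided, on log2(normalised count + 1)), over 16202 of 54232 genes with a mean of at least 10, adjusted by Benjamini-Hochberg and called under 0.05. On the recovered reads, edgeR 4.0.16 called 1 and DESeq2 1.42.0 called 2 genes. Fold changes of low genes are understated by the added count of 1. Alternatives changed the added count, filter, scaling, tool, block and libraries. The tests were tried on simulated data with known changes.

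Deviations from the group mean were correlated across genes between libraries of the same number, at 0.25, 0.80 and 0.41 for numbers 11, 15 and 31. All were above 0.1, so that numbers were taken to pair libraries. The main limma comparison of UtyGT with WT did not use this pairing, which entered only as the replicate block among the alternatives. With that block, 399 genes had an unadjusted p under 0.05 in limma, compared with 195 without it. The labels do not state this pairing, and 2 of the 3 UtyGT libraries correlated more closely with a WT library of another number (UtyGT 31 with WT 11 at 0.73, and UtyGT 11 with WT 31 at 0.41). Within groups, counts differed beyond sampling noise (chi-square per degree of freedom of 11.2 to 34.6).

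Exon lengths are from GENCODE M21 on GRCm38, and promoters from RefSeq. The members and gene lists were chosen with earlier results of these data known. All 10 members are named, with, from each list, the 2 genes of smallest p on either side of 0, and the most abundant marker, except for a few list genes that are not reported here but stay in the counts. Genes named besides were chosen after their values were seen.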

Additional observations from a re-analysis of the deposited data

How the results depend on the processing

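Under all 19 alternatives, 0 of the 10 genes were called between UtyGT and WT, and under all 13 alternatives of the F test 0 were called between the numbers. With a mean of at least 50, Gja5 gave no value. That 0 of the 10 genes had an unadjusted p under 0.05 in the limma F test depended on single libraries. The log2 range between the numbers did so too. As each library was left out in turn, it ran from 0.42 to 2.18 for Gja5 and from 0.14 to 0.69 for Gja1. It ran from 0.20 to 0.43 for Dsc2 and from 0.26 to 0.43 for Dsg2. Over all genes, the count of calls between UtyGT and WT was 1, but 2 with the replicate block (Uty and Ddx3y), 2 with DESeq2 and 4 with DESeq2 and the replicate block. It ranged from 1 to 2 as each library was left out. The block changed no other call in limma among the genes named here, the 10 genes included. The count of genes called between the numbers was 776, but 478 with a mean of at least 50, and it ranged from 373 (without WT 15) to 1240 (without UtyGT 11), with 435 without UtyGT 15. Gja1 turned from -0.04 to 0.22 without both number 15 libraries and to 0.22 in the table of 4 libraries, and Evpl to -0.074 and -0.069. Under quantile scaling, Dsc2 turned to -0.014 and Ctnna3 to -0.024. As each library was left out in turn, log2 fold changes ranged from -0.25 to 0.16 for Gja1, from -0.034 to 0.20 for Cdh2, from -0.0073 to 0.20 for Dsg2, from -0.079 to 0.14 for Dsc2 and from -0.084 to 0.088 for Ctnna3. The same ranges were -0.085 to 0.32 for Gjc1, -1.89 to 0.27 for Ctnnd2 and -0.13 to 0.083 for Mapre1. The cause of these changes of sign was not tested. With 3 libraries per group, differences of the size seen for most of these genes lie within the spread between libraries.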
